A study of Mus musculus with 9 samples.

Results

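The muscle atrophy ligases and FoxO factors are 10 genes: the TRIM ligases Trim63, Trim54 and Trim55, the cullin-RING ligase subunits Fbxo32, Fbxo30, Asb2 and Cul3, and the transcription factors Foxo1, Foxo3 and Foxo4. They were chosen by symbol and matched to Ensembl identifiers, and they are 10 of the 47529 genes listed in any of the 9 count tables. All 10 were found in every table. Their RNA was measured in 4 groups of mouse samples, and the study asked how expression changes as myoblasts become myotubes and whether added lactate moves myoblasts in that direction. GAS is gastrocnemius muscle of female C57BL/6 mice (C57Bl6/J in the methods) aged 8 to 12 weeks, from 3 biological replicates with libraries of poly(A) RNA. MB are primary myoblasts of C57BL/6 mice in growth medium, given PBS as control, with 2 biological replicates. MT are myotubes made from such myoblasts by 3 days in differentiation medium, with 2 biological replicates. MB + lactate are myoblasts to which sodium-L-lactate was added at 10 mM, with 2 biological replicates, and the labels give no number of hours. The cultured libraries were made with Smart-seq2, a full-length cDNA protocol, from 5 ng of total RNA. The labels do not say whether replicates came from separate animals or cultures, so p-values measure the spread between these samples only.

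Ubiquitin ligases attach ubiquitin to chosen proteins, and chains of ubiquitin send a protein to the 26S proteasome. Trim63 (MuRF1) and Fbxo32 (atrogin-1) are the classic ligase genes of muscle atrophy, induced in muscle by fasting, denervation and glucocorticoids. FoxO factors activate both genes when insulin and Akt signalling is low, while phosphorylation by Akt keeps FoxO proteins out of the nucleus, a step that RNA levels do not show.

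Promoter sequences are shown for Trim63 and Trim54, which rose in MT, and for Fbxo30, which did not pass the test. RefSeq promoters on GRCm38.p6 were matched for 7 of the 10 genes, Trim63, Trim54, Fbxo30, Asb2 (2 promoters), Cul3, Foxo1 and Foxo3. Each line holds the 250 bases before the RefSeq start site on the strand of the gene, 5′ to 3′, and capitals mark matches to the motifs described next. The windows are chr4:134314870-134315119 (+) for Trim63, chr5:31116362-31116611 (+) for Trim54 and chr10:11281337-11281586 (+) for Fbxo30. In the annotation used for gene coordinates, Fbxo30 starts at 11281330, so its window lies inside that gene and is upstream of the RefSeq start only.
Trim63: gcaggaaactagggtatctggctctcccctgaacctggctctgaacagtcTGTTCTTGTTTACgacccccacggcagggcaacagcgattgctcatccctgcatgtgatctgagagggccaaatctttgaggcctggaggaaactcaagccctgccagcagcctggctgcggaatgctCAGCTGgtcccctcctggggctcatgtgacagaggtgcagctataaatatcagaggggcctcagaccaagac
Trim54: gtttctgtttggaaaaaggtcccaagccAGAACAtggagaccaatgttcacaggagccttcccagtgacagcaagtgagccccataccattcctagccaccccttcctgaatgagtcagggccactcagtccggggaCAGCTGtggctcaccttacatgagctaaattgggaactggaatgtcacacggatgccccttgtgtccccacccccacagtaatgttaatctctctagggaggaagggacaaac
Fbxo30: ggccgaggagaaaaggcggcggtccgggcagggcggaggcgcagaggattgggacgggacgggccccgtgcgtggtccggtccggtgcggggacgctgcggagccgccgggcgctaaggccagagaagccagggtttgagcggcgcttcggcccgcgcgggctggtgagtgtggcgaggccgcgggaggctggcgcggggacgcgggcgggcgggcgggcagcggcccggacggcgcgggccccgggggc

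The motifs searched on both strands, over 250 bases before and 50 after the start site, were the FoxO site GTAAACA, the E box CAGCTG that MyoD can bind, and AGAACA, a hexamer of the glucocorticoid receptor's site. The FoxO site was found in 1 of the 7 genes, Trim63, and in 3.65% of 32851 RefSeq promoters. In Trim63 it reads TGTTTAC from position -194, directly after the complement of the glucocorticoid receptor hexamer, TGTTCT, at -200, and the matches do not overlap. The E box lies at -72 in Trim63, at -113 in Trim54 and at 22 in the second Asb2 promoter, and 16.3% of all promoters hold it. Trim54 also holds AGAACA at -222, and 19.0% of all promoters hold this hexamer. A match is a description of the letters and not of a bound site. The promoters of Fbxo30, Foxo3, Cul3 and Foxo1 held 47, 35, 29 and 31 CG dinucleotides, those of Trim63 and Trim54 held 7 and 2, and the Asb2 promoters held 6 and 5. The median over all promoters was 7 and the upper quartile 20.

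Between 19307793 and 19941574 reads per GAS library and between 5198247 and 10839516 per cultured library were counted on genes. Levels are given in CPM, counts scaled to a common library size and normalized for composition, and 3 counts were worth 0.152 to 0.155 CPM in GAS and 0.234 to 0.533 CPM in the cultured libraries, a limit that covers counting error only. The labelled cell types were checked on marker genes. The summed level of 4 myoblast markers (Pax7, Myf5, Cdk1, Mki67) was 522 to 582 CPM in control MB and 84.4 to 121 CPM in MT. That of 5 genes of differentiated muscle (Myog, Ckm, Acta1, Tnnt3, Mymk) was 84.5 to 212 CPM in control MB, 9590 to 9729 CPM in MT and 66794 to 73989 CPM in GAS, where Mymk was at 0 in 2 of 3 libraries. The MT libraries stood apart from MB in markers of other cells: 11 markers of leukocytes, endothelium, fibroblasts, fat and Schwann cells summed to 453 CPM in MT replicate 1 (1 of 11 at 0) and 111 CPM in MT replicate 2 (7 of 11 at 0). They summed to 1.96 to 3.28 CPM in the MB libraries (5 to 8 of 11 at 0) and to 385 to 483 CPM in GAS (0 of 11 at 0). Most of this in MT was the fibroblast gene Dcn, at 427 and 106 CPM. MT replicate 1 also held 8918 genes counted in no other cultured library, with 1.23% of its counts, so results without this library are given where a call depends on it. In such bulk samples, fewer cells of a type and less RNA per cell cannot be told apart.

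**Figure D1:**
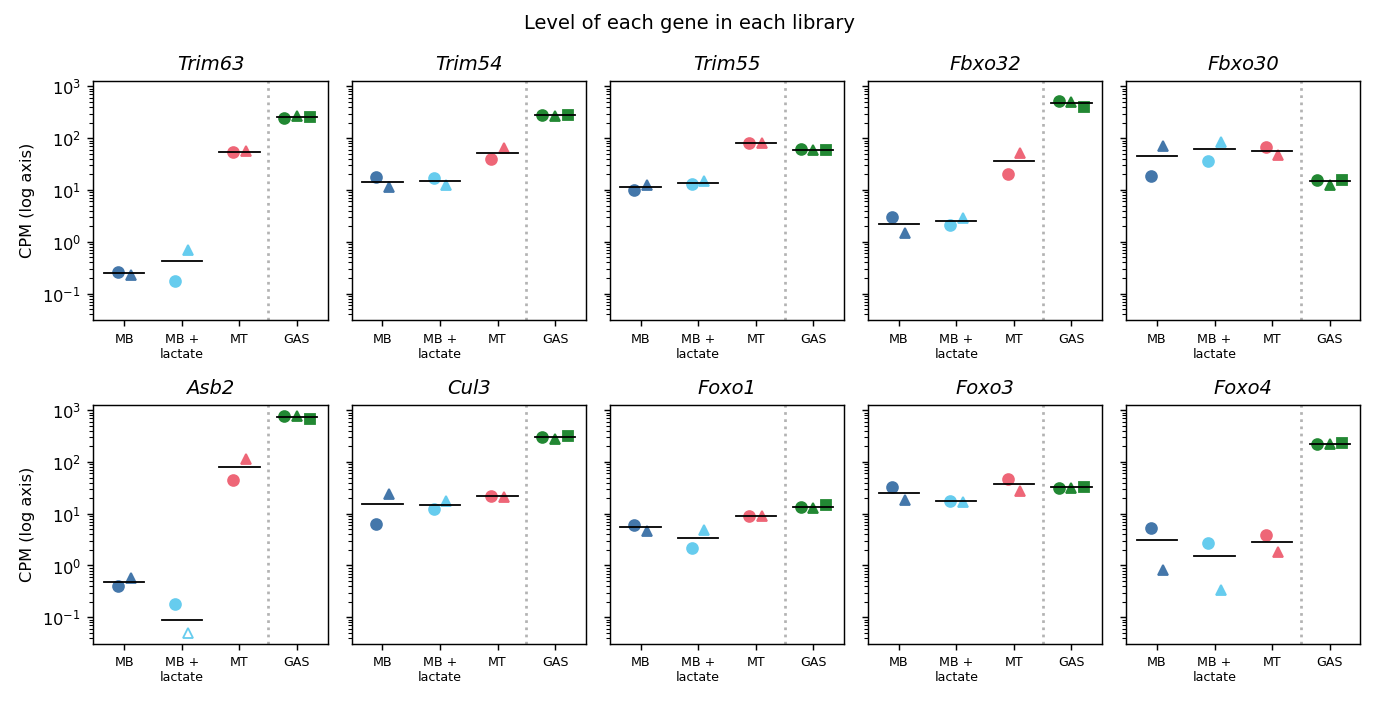
Level of each of the 10 genes in CPM (log axis) in every library of MB, MB + lactate, MT and GAS, with a point per replicate and a bar at the group mean. The open triangle for Asb2 is a library with 0 counts drawn at the axis floor, and the dotted line sets off GAS, whose libraries were made by another protocol. Trim63 lies near 0.25 CPM in control MB and at 54.1 and 56.4 CPM in MT, while the MT points of Fbxo30 and of Cul3 lie between their control MB points.

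Between MB and MT, the TRIM ligase genes, Fbxo32 and Asb2 rose while Cul3, Fbxo30 and the FoxO factors did not pass the test. In edgeR's quasi-likelihood test, 5 of the 10 genes were called higher in MT and 0 lower, where a call is an adjusted p under 0.05 with an absolute log2 fold change (log2FC) over 0.5. Over all 12921 genes tested, 11.0% were called higher and 6.86% lower. The 5 genes were Trim63, Trim54, Trim55, Fbxo32 and Asb2. DESeq2 and edgeR's likelihood ratio test also called 5 of the 10. The median log2FC of the 10 genes was 1.28, beside 0.07 for all genes tested. Libraries of MT lay above both libraries of MB for 6 of the 10 genes, the 5 above and Foxo1, and this held for 33.1% of all genes tested.

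Gene coordinates are on mm10, and all 10 genes are protein-coding. Trim63 (ENSMUSG00000028834, chr4:134315120-134329629, + strand) encodes MuRF1, a ligase of the sarcomere's M-line that ubiquitinates thick-filament proteins. Its level was 0.263 and 0.229 CPM in control MB, from 2 counts in each library, and 54.1 and 56.4 CPM in MT, from 694 and 459 counts. Both MT libraries lay far above both MB libraries, and the MT replicates were close to each other. From counts summed over the replicates, the ratio of MT to MB was 225, with a 95% counting interval of 87.5 to 826 that covers counting error only. The fitted log2FC was 7.75 ± 0.69 (SE, n = 2 and 2, edgeR adjusted p = 0.00012), the 219th largest of 12921. Without MT replicate 1, it was 7.76.

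Trim54 (MuRF3, ENSMUSG00000062077, chr5:31116712-31137630, + strand) encodes a ligase that binds microtubules and the sarcomere. It was already present in control MB, at 17.5 and 11.5 CPM, and lay at 39.0 and 65.6 CPM in MT. The groups did not overlap, but the MT libraries differed from each other by 1.68 times. The log2FC was 1.86 ± 0.51 (SE, edgeR adjusted p = 0.0306). This call rests on MT replicate 2, since without it the log2FC was 1.28 with an adjusted p of 0.215, and without MT replicate 1 it was 2.18 with an adjusted p of 0.0484. Trim55 (MuRF2, ENSMUSG00000060913, chr3:19644474-19692421, + strand), the titin-associated member, was at 9.85 and 12.7 CPM in control MB and at 79.4 and 80.6 CPM in MT. The groups did not overlap, and the log2FC was 2.83 ± 0.47 (SE, edgeR adjusted p = 0.0031). An antisense gene, Gm15469, overlaps exons of Trim54, and its reads cannot be told apart where strand was not used in counting. It had 3 counts in MB replicate 1 and 0 in the other cultured libraries.

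Fbxo32 (ENSMUSG00000022358, chr15:58175879-58214932, − strand) encodes atrogin-1, the F-box protein that brings substrates such as MyoD and eIF3f to a Cul1 ligase. Its level was 3.02 and 1.49 CPM in control MB and 20.7 and 51.2 CPM in MT. All MT values lay above all MB values, and the MT replicates differed by 2.47 times, more than those of Trim63 or Trim55. The log2FC was 3.99 ± 0.69 (SE, edgeR adjusted p = 0.0036), with 3.05 without MT replicate 2 and 4.50 without MT replicate 1, both still called. The antisense gene Gm15943, which overlaps its exons, had 8 and 1 counts in MT, beside 266 and 417 counts for Fbxo32. Asb2 (ENSMUSG00000021200, chr12:103321142-103356001, − strand) encodes a SOCS-box protein that brings filamins to a Cul5 ligase. It had 3 and 5 counts in control MB (0.394 and 0.573 CPM) and 577 and 938 counts in MT (45.0 and 115 CPM). Both MT libraries were far above MB, and the MT replicates differed by 2.56 times. The ratio of MT to MB was 148, with a 95% counting interval of 74.7 to 343, and the log2FC was 7.32 ± 0.75 (SE, edgeR adjusted p = 0.0002). It was 6.35 without MT replicate 2 and 7.84 without MT replicate 1, both still called.

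Fbxo30 (ENSMUSG00000047648, chr10:11281330-11298052, + strand) encodes MUSA1, an F-box protein induced in denervated muscle. It was at 19.0 and 70.0 CPM in control MB and at 67.2 and 48.1 CPM in MT. Both MT values lay within the range of MB, and the MB replicates differed by 3.68 times. The log2FC was 0.38 ± 0.59 (SE, edgeR adjusted p = 0.698). Without MB replicate 2 it was 1.53 and called (adjusted p = 0.0389), and without MB replicate 1 it was -0.41. Cul3 (ENSMUSG00000004364, chr1:80264923-80340480, − strand) is the scaffold that joins BTB-domain adaptors to the RING protein Rbx1. It was at 6.30 and 24.2 CPM in control MB and at 22.3 and 21.0 CPM in MT. The groups overlapped, with a spread of 3.83 times between the MB replicates and a log2FC of 0.51 ± 0.64 (SE, edgeR adjusted p = 0.625). Without MB replicate 2 the log2FC of Cul3 was 1.71 and called (adjusted p = 0.0312), and without MB replicate 1 it was -0.28. For both genes the call and the sign thus depended on which MB library was used.

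The FoxO factors were measured at low to moderate levels in both cell states, and 0 of 3 were called by edgeR, by DESeq2 or by the likelihood ratio test, with 0 of 3 at an unadjusted p under 0.05, beside 32.5% of all genes tested. Foxo1 (ENSMUSG00000044167, chr3:52268336-52353221, + strand), the factor most often tied to Trim63 and Fbxo32 induction, was at 6.17 and 4.70 CPM in control MB and at 8.89 and 8.84 CPM in MT. Its MT libraries both lay above MB, with a log2FC of 0.71 and a 95% interval of -0.69 to 2.11 (edgeR adjusted p = 0.473). Foxo3 (ENSMUSG00000048756, chr10:42181841-42276755, − strand), which also drives autophagy genes in muscle, was at 32.3 and 18.7 CPM in control MB and at 47.6 and 26.9 CPM in MT. The groups overlapped, and the log2FC was 0.56 (95% interval -0.59 to 1.71, edgeR adjusted p = 0.491). Foxo4 (ENSMUSG00000042903, chrX:101254528-101260873, + strand) was at 5.38 and 0.802 CPM in control MB, from 41 and 7 counts, and at 3.82 and 1.84 CPM in MT, from 49 and 15 counts. Both MT values lay between the MB values, and the log2FC was -0.09 (95% interval -2.27 to 2.08, edgeR adjusted p = 0.959). Its sign turned to 1.67 without MB replicate 1 and to 0.16 without MT replicate 2. The intervals of all 3 factors include a doubling, a log2FC of 1, so a change of that size lies within the error of these replicates.

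**Figure D2:**
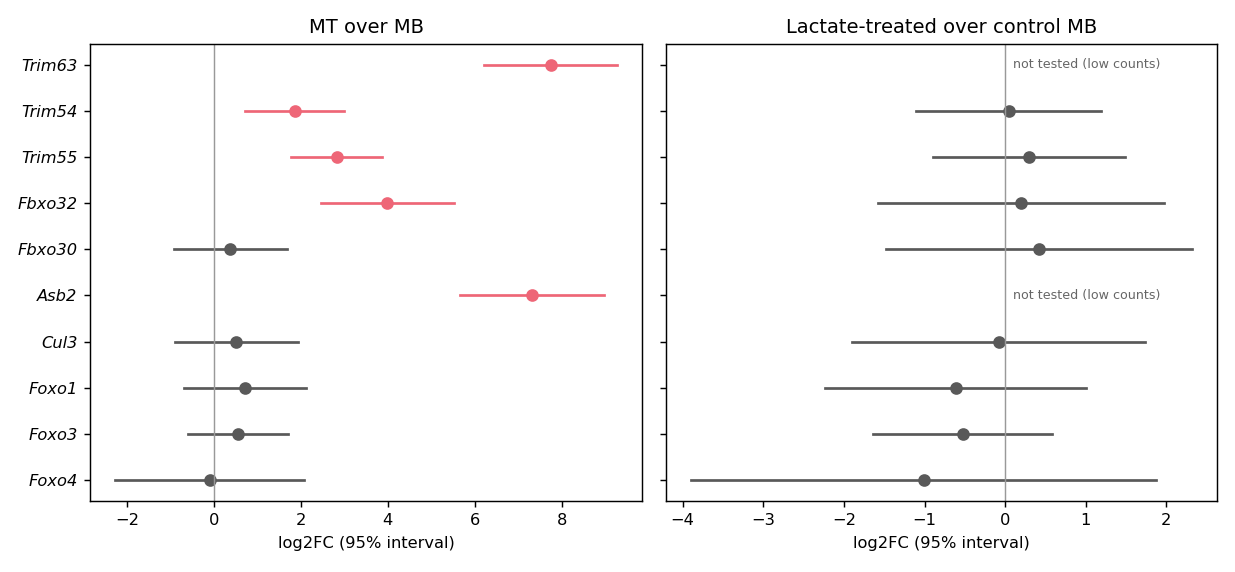
Log2FC of each gene with its 95% interval from edgeR, MT over MB on the left and lactate-treated over control MB on the right, with called genes in red and the others in grey. Trim63, Asb2, Fbxo32, Trim55 and Trim54 lie above 0 on the left, from 7.75 down to 1.86, and all 8 intervals on the right include 0. The panels share the control MB libraries.

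The markers of other cells that rose in MT were compared with the calls by leaving out MT replicate 1, which held most of their counts. Without it, 5 of the 10 genes were called higher, with log2FC values of 7.76 for Trim63, 7.84 for Asb2, 4.50 for Fbxo32, 2.83 for Trim55 and 2.18 for Trim54. Dcn was called higher with (10.97) and without (9.61) this library, so MT replicate 2 also carried it. The 10 genes had between 13.2 (Foxo1) and 383 (Trim55) counts per kb of exon in MT replicate 1. The genes counted in that library alone had a median of 3.23 counts per kb among protein-coding genes.

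The partners of these ligases in the cell were read from lists of related genes. None of the 18 general cullin-RING partners, such as Skp1a, Cul1, Cul5, Rbx1 and Nedd8, was called in either direction by edgeR, with 1 at an unadjusted p under 0.05, 1 called by DESeq2 and 1 by the likelihood ratio test. Their median log2FC was 0.21. Without MB replicate 2, 3 of these partners were called higher, and without MB replicate 1, 1 was called lower. Adaptors of Cul3, a list of BTB-kelch proteins of muscle with broader adaptors such as Keap1, Spop and Kctd10, were also read. Of 13 tested, 6 were called higher and 0 lower, with a median of 3.62. Klhl41, a sarcomeric kelch protein mutated in nemaline myopathy, was at 1.18 and 1.26 CPM in control MB and at 424 and 336 CPM in MT, with a log2FC of 8.27. Klhl40, which stabilizes nebulin, rose by a log2FC of 7.09 from 1.31 and 0.916 CPM to 141 and 164 CPM. Klhl34 had 0 counts in both MB libraries and was at least 7.32-fold higher in MT, computed against 3 counts per library. Klhl34 passed the filter through its MT counts alone. With Klhl34 at that bound, the median of the tested adaptors was 2.87, which still leaves out the 3 not tested.

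Of 22 other ASB and F-box genes tested, 8 were called higher and 1 lower, with a median log2FC of 0.97. Asb14, Fbxo40 and Asb15 had 0 counts in both MB libraries and were at least 18.0-fold, 15.8-fold and 8.61-fold higher in MT, computed against 3 counts per library. Fbxo40 is a muscle F-box protein that targets Irs1. These genes were low in MT, at 5.30 and 6.39 CPM for Fbxo40, and the same gene was at 455 ± 18.7 CPM (SD, n = 3) in GAS. The gene called lower was Skp2, the F-box protein that targets the cell cycle inhibitor p27, at 71.7 and 73.9 CPM in control MB and 26.2 and 18.5 CPM in MT (log2FC -1.69, edgeR adjusted p = 0.0283). Skp2 was not called without MT replicate 1 (adjusted p = 0.145), and the number called lower was 0 without either MT replicate and 2 without MB replicate 2.

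Among 19 other ubiquitin ligases of muscle, 2 were called higher and 0 lower, with a median log2FC of 0.08. Trim72, the membrane repair protein MG53, rose from 0.131 and 0.229 CPM to 69.5 and 125 CPM (log2FC 8.95). Without MB replicate 2, 4 were called higher. For 32 subunits of the 26S proteasome, 0 were called by edgeR or DESeq2 in either direction, with 1 at an unadjusted p under 0.05. Their median log2FC was -0.50, and the MT libraries lay below both MB libraries for 23 of the 32, beside 29.2% of all genes tested. Without MB replicate 2, 1 subunit was called higher and 1 lower.

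Of 21 regulators of FoxO factors listed, 20 were tested, and 1 was called higher and 2 lower, with a median log2FC of -0.25. Pik3r1, the regulatory subunit of PI3-kinase, was the gene called higher (log2FC 2.17), and Sgk1, a kinase that phosphorylates FoxO factors, was called lower (log2FC -1.68) together with Skp2. Without MT replicate 1, 0 were called in either direction, without MT replicate 2, 1 was called lower, and without MB replicate 2, 4 were called higher. Of 29 known FoxO target genes of muscle listed, 28 were tested, and 10 were called higher and 1 lower, with a median log2FC of 1.06. Txnip, an inhibitor of glucose uptake and of thioredoxin, rose from 4.20 and 2.06 CPM to 51.1 and 53.3 CPM (log2FC 4.07). Sesn1, a stress-response inhibitor of mTORC1, rose from 7.88 and 6.87 CPM to 105 and 69.8 CPM (log2FC 3.58). Bnip3, a mitophagy receptor, rose from 43.6 and 44.7 CPM to 991 and 198 CPM (log2FC 3.77), and was at 2.17 without MT replicate 1. Cited2, a transcriptional coregulator, was the target called lower (log2FC -1.87). The number of targets called higher was 4 without MT replicate 1, 5 without MT replicate 2 and 6 without MB replicate 2, and 0 were called lower without MT replicate 1. Many of these genes have other regulators, and the list does not measure FoxO activity.

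Among reported substrates of these ligases, many sarcomere proteins rose in MT, while Myod1, Eif3f and Flna lay lower without being called. Of 14 tested, 8 were called higher and 0 lower, with a median log2FC of 6.17, and 2 of the 14, Acta1 and Ckm, are also among the markers of differentiated muscle. The MT libraries lay above both MB libraries for 9 of the 14 and below both for 3, beside 33.1% and 29.2% of all genes tested. The 3 were Myod1, Eif3f and Flna, with means of 255, 142 and 643 CPM in MT. Their means in control MB were 969, 392 and 1741 CPM. Mybpc1, a myosin-binding protein, rose from 0.657 and 0.229 CPM to 483 and 529 CPM (log2FC 10.15). Myl1, a myosin light chain, rose by a log2FC of 8.31, and Tnni2, the fast troponin I, by 7.32. Without MT replicate 2, 3 substrates were called lower, and without MB replicate 2, 2 were.

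**Figure D3:**
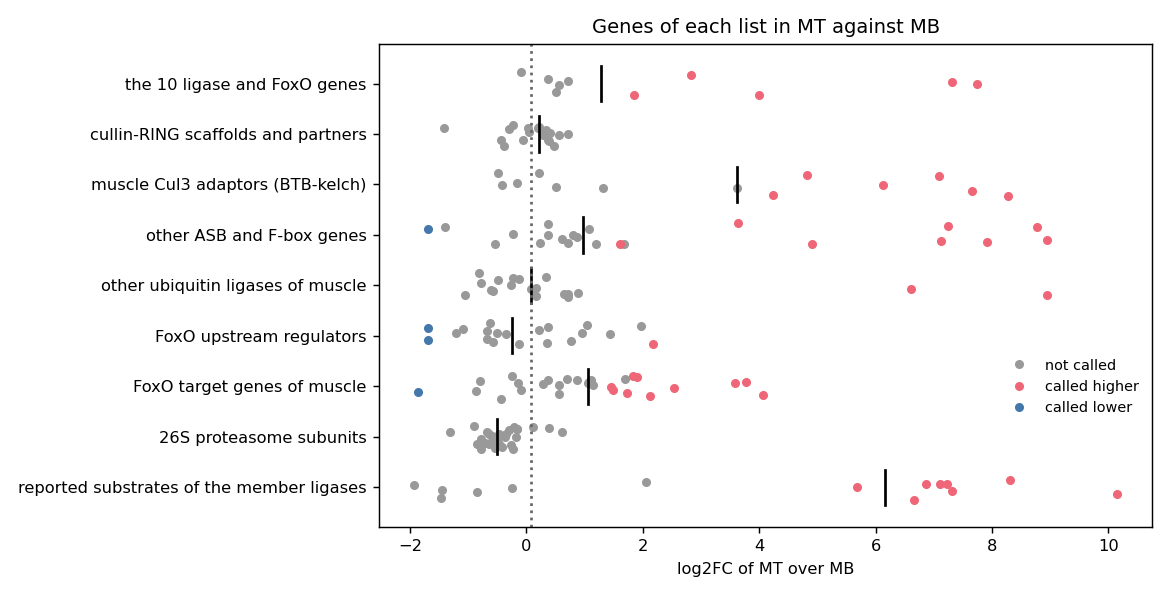
Log2FC of MT over MB for each tested gene of 9 lists, a point per gene, in red if called higher, in blue if called lower and in grey if not called. The black bars are list medians and the dotted line is the median of all genes tested (0.07). The Cul3 adaptors and substrates have medians of 3.62 and 6.17, and the proteasome subunits sit near -0.50 with none called.

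Lactate moved none of the ligase or FoxO genes past the test. Of the 10 genes, 8 passed the filter on low counts, and 0 were called or had an unadjusted p under 0.05 in edgeR, nor were any called by DESeq2 or the likelihood ratio test. Over all 11804 genes tested, 0.0% were called in either direction and 5 (0.0424%) had an unadjusted p under 0.05. With no effect and independent libraries, that share should be near 0.05 of the genes, so this test was conservative. Its p-values therefore say little about small changes. Deviations of same-numbered treated and control libraries correlated at 0.702. With the replicate number as a block in edgeR, 166 genes had an unadjusted p under 0.05 and 0 were called. This comparison uses the same control MB libraries as that of MT. Trim63 and Asb2 were not tested: Trim63 had 2 and 2 counts in control and 1 and 4 counts in lactate-treated MB, and Asb2 had 3 and 5 counts in control and 1 and 0 counts in lactate-treated MB. The ratio of treated to control was 1.78 for Trim63 (95% counting interval 0.383 to 8.97) and 0.178 for Asb2 (0.0040 to 1.33), and both genes stayed at 4 counts or fewer in each treated library.

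Trim54 was at 17.4 and 12.3 CPM in lactate-treated MB, beside 17.5 and 11.5 CPM in control MB. The libraries overlapped, and the log2FC of 0.04 had a 95% interval of -1.10 to 1.19. Trim55 was at 13.0 and 14.8 CPM after lactate. Both values lay above the control values of 9.85 and 12.7 CPM, which held for 3.46% of all genes tested, and the log2FC was 0.29 (95% interval -0.89 to 1.48). Fbxo32, at 2.13 and 2.90 CPM, stayed within the control range, with a log2FC of 0.20 (95% interval -1.58 to 1.97).

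Fbxo30 was at 35.6 and 85.8 CPM after lactate and 19.0 and 70.0 CPM in control MB. In both groups replicate 2 was the higher library, by 2.41 times after lactate and by 3.68 times in control, and the groups overlapped (log2FC 0.42, 95% interval -1.47 to 2.32). Each treated library lay above the control library of the same number, by 1.87 times (95% counting interval 1.5 to 2.33) for replicate 1 and 1.23 times (1.09 to 1.38) for replicate 2, while the labels do not say that a number marks a shared culture. Cul3 was at 12.3 and 17.4 CPM, inside the control range, with a log2FC of -0.08 (95% interval -1.90 to 1.74). Each FoxO factor had a fitted value below 0. Foxo1 was at 2.13 and 4.78 CPM, with a log2FC of -0.61 (95% interval -2.23 to 1.00). Foxo3 was at 17.8 and 17.1 CPM, both below the control values of 32.3 and 18.7 CPM, as held for 7.55% of all genes tested, and its log2FC was -0.53 (95% interval -1.64 to 0.59). Foxo4, from 15 and 2 counts, was at 2.67 and 0.341 CPM with a log2FC of -1.01 (95% interval -3.90 to 1.88), which was 0.87 without MB replicate 1. The intervals of all 8 genes include 0, and each is wide enough to hold a change of at least 1 on the log2 scale.

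In the lists of related genes, edgeR, DESeq2 and the likelihood ratio test called 0 genes after lactate, and 0 had an unadjusted p under 0.05. The list medians lay between -0.12 for the FoxO regulators and 0.14 for the proteasome subunits, beside -0.0034 for all genes tested. The share of genes with a log2FC above 0 ran from 29.4% for the other ASB and F-box genes to 96.9% for the proteasome subunits. Of all genes tested, 49.5% lay above 0. The treated libraries lay above both control libraries for 3 of the 32 subunits, beside 3.46% of all genes tested. No test was run on these shares.

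In GAS, the 10 genes spanned levels from 1.57 to 211 RPKM (CPM per kb of exon), and 9874 genes had a mean above 1 RPKM. Asb2 was the highest, at 211 ± 14.1 RPKM (SD, n = 3), rank 160 among all genes. Trim54 followed at 192 ± 3.97 RPKM, and the replicates of these genes overlapped. Trim63 was at 90.5 ± 3.46 RPKM, below every Trim54 replicate and above every Fbxo32 replicate. Fbxo32 (67.8 ± 8.30), Foxo4 (64.0 ± 1.43) and Cul3 (61.0 ± 4.86 RPKM) came next, and neighbours among these 3 overlapped. Trim55 was at 22.6 ± 0.964 RPKM, clear of its neighbours. Foxo3 (4.24 ± 0.132), Fbxo30 (2.84 ± 0.340) and Foxo1 (1.57 ± 0.105 RPKM) were the lowest, without overlap. Levels depend on the exon length used: with the longest transcript in place of all exons, Trim63 was at 136 RPKM, Asb2 at 277 and Foxo4 at 70.5. Antisense genes over Fbxo32 and Foxo1 exons had 116 to 158 counts (Gm15943) and 2 to 7 counts (Gm20402) in GAS, beside at least 7850 and 250 counts for Fbxo32 and Foxo1.

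In MT, Trim54 (36.4 ± 13.1), Trim55 (30.1 ± 0.300), Asb2 (22.6 ± 14.0) and Trim63 (19.4 ± 0.564 RPKM, SD, n = 2) were the highest, and each overlapped with the next. Fbxo30 (11.1 ± 2.59 RPKM) lay below every Trim63 value and above every Fbxo32 value. Fbxo32 (5.16), Foxo3 (4.92) and Cul3 (4.44 RPKM) overlapped with each other, and Foxo1 (1.02) and Foxo4 (0.812 RPKM) were the lowest. In control MB, Trim54 (10.1 ± 2.96) and Fbxo30 (8.56 ± 6.93 RPKM) led, each of the 6 highest genes overlapped with the next, and Asb2 (0.136) and Trim63 (0.0865 RPKM) were the lowest. No test was run between GAS and the cultures, because tissue and library protocol differ together and cannot be told apart.

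**Figure D4:**
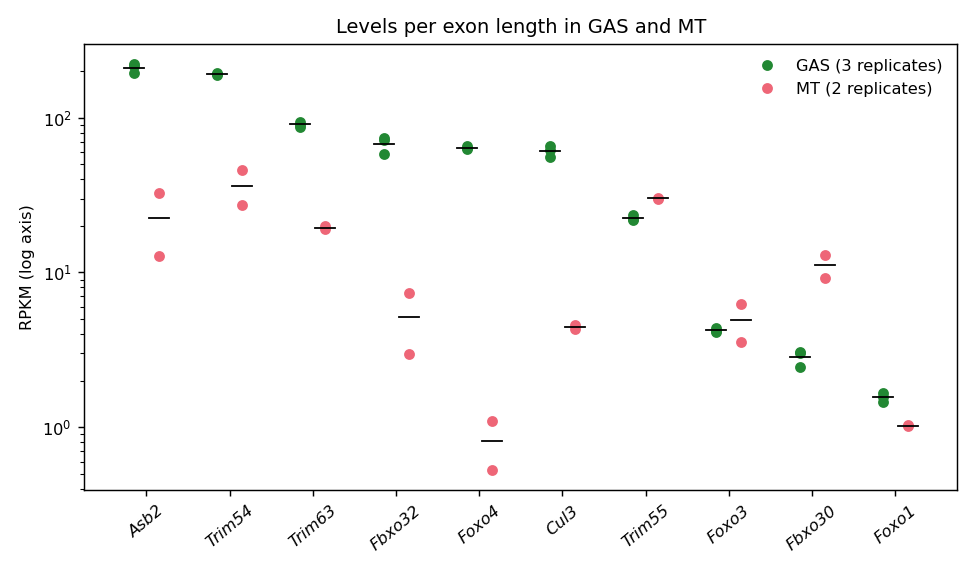
Level per exon length (RPKM, log axis) of each gene in the 3 GAS and the 2 MT replicates, with bars at the group means and genes ordered by their mean in GAS. Asb2 and Trim54 lead in GAS at 211 and 192 RPKM, and Foxo4, at 64.0 RPKM in GAS, is the lowest of the 10 in MT at 0.812 RPKM. The groups were made by different library protocols.

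The makeup of each family was compared within each library, where scaling between libraries does not enter. The FoxO sum covers Foxo1, Foxo3 and Foxo4 only. It leaves out Foxo6, which was placed among the FoxO regulators and was at 3.38 RPKM in GAS and 0.213 RPKM in MT. Foxo4 held 91.5 to 91.8% of the summed FoxO RPKM in GAS, 10.4 to 13.0% in MT, 7.11 to 23.7% in control MB and 3.37 to 22.8% after lactate. Foxo3 held 5.93 to 6.17% in GAS and 65.4 to 77.6% in the cultured libraries. The leading FoxO gene was thus Foxo4 in all 3 muscle libraries and Foxo3 in all 6 cultured libraries. No test was run on these shares, because tissue and library protocol differ together.

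Among the TRIM ligases, Trim63 held 0.579 to 0.628% of the family in control MB, 20.7 to 25.0% in MT and 28.8 to 31.0% in GAS. Trim54 was the largest share in GAS (61.7 to 63.6%) and in control MB (62.1 to 76.2%). Of the 4 cullin-RING subunits, Fbxo30 held 66.6 to 71.6% in control MB and 70.4 to 80.6% after lactate, against 17.3 to 39.0% in MT and 0.709 to 0.946% in GAS. Asb2 held 0.860 to 2.02% in control MB, 38.3 to 60.9% in MT and 60.6 to 62.4% in GAS. The summed level of the 4 subunits was 12.2 ± 9.40 RPKM in control MB, 43.3 ± 14.3 RPKM in MT (SD, n = 2 each) and 342 ± 19.5 RPKM in GAS (SD, n = 3).

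**Figure D5:**
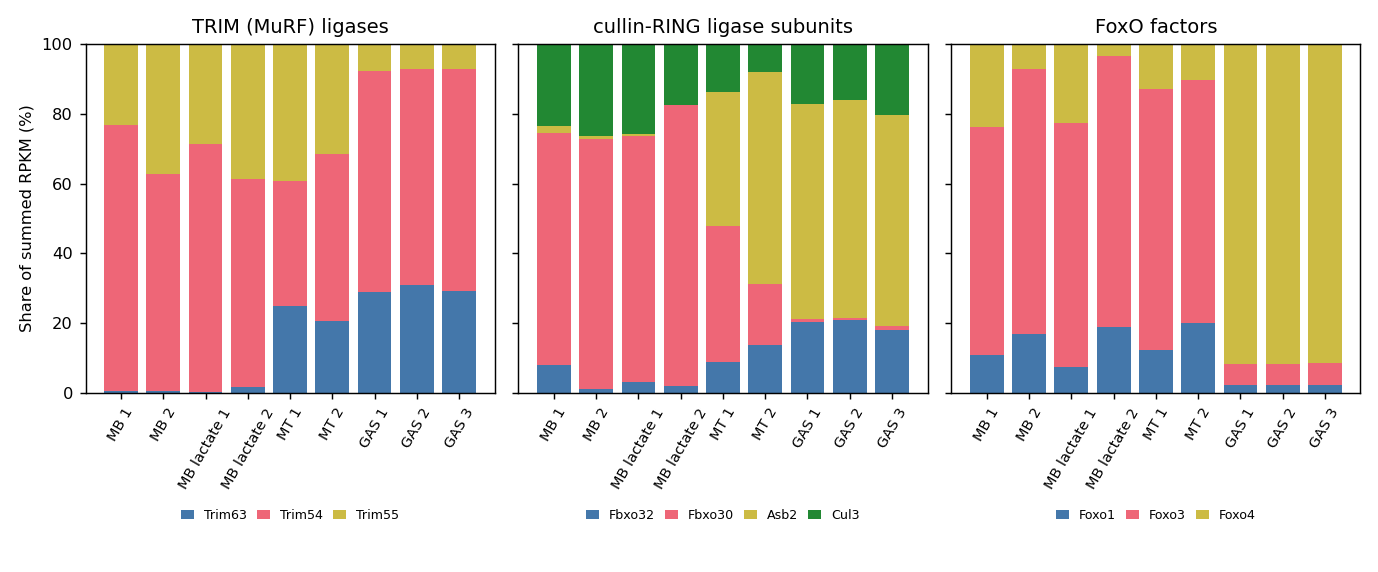
Share of each gene in the summed RPKM of its family (%), in stacked bars per library that each reach 100%, for the TRIM ligases, the cullin-RING subunits and the FoxO factors. Foxo4 fills 91.5 to 91.8% of the FoxO bar in GAS and at most 23.7% in the cultured libraries, and Asb2 takes the place of Fbxo30 as the largest cullin-RING share in GAS.

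The genes whose pattern was most like that of 4 members were sought over the 6 cultured libraries, on log2(CPM + 1), among 8915 genes with a mean over 10 CPM in MT. The libraries form 3 groups of 2, so a high correlation mostly reflects MT against the MB libraries, and it is given as a description. For Trim63 they were Tnnc2, the fast skeletal troponin C (r = 1.000), Ablim3 (0.999) and Mylk (0.999). For Asb2 they were Anxa8, Inpp4b and Apobec2 (r = 0.999 each). For Fbxo32, whose MT replicates differed, they were Ehd4 (0.997), Rflnb (0.996) and Synpo2l (0.996). For Foxo1 they were Slc37a3 (0.997), Sh3pxd2a (0.994) and Zfp408 (0.990), and its correlation with Trim63 was 0.780. Among the members themselves, Trim63 was closest to Trim55 (0.994) and Asb2 (0.983), and Fbxo30 had 0.252 with Trim63.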

How the data were processed

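RNA sequencing of 9 mouse libraries was used. The authors trimmed the reads with Trim Galore 0.6.6, aligned them to mm10 with HISAT2 2.2.1 and counted them on genes with featureCounts (Subread 2.0.1), and they deposited raw counts per gene. The annotation release, strand and multimapping settings are not given in the sources used here, and how reads shared between related genes were assigned could change single values. Gene names, coordinates and exon lengths came from the GENCODE annotation of the same assembly. The columns of the deposited tables hold counts only, and samples were grouped by their titles.

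CPM used TMM normalization, separately for GAS and for cultured cells, and RPKM divides CPM by the summed exon length. The comparisons of MT against MB and of treated against untreated MB used edgeR 4.0.16 (R 4.3.3) with its filter on low counts, TMM, and the two-sided quasi-likelihood test with Benjamini-Hochberg adjustment over all genes tested. Each fit held the 4 libraries compared, without the replicate number. The code was tested on simulated data with 200 changed genes. Alternatives were RLE size factors, DESeq2 1.42.0, other filters, the replicate number as a block, all 6 cultured libraries in one fit, a log2FC threshold of 1, a nominal p under 0.01, another gene length, and leaving out each replicate. A crossed block, the likelihood ratio test and the removal of CT010467.1 and Gm26917 were chosen after seeing the data. Python 3.11.15 with pandas 2.3.3 and scipy 1.17.1 made the tables. Replicates differed by more than counting noise, so none were merged for the tests. Ratios between groups that carry a counting interval use counts summed over the replicates, so their intervals leave out the spread between replicates.

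The members and lists were chosen with earlier results of these data known. Named genes are the members, up to 3 genes per list and direction with the largest change among those called whose MT and MB libraries do not overlap, the label markers, and the 3 genes most like a member. A gene that this rule selects is left out of the text. Of genes outside this rule, partners and adaptors of cullins, Foxo6 and antisense genes are named only to say what a list, a family or an overlap holds. The substrates Myod1, Eif3f and Flna were named after their values were seen. GAS was not tested against cultured cells.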

Additional observations from a re-analysis of the deposited data

How the results depend on the processing

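The 5 calls of members in MT stayed at 5 under RLE size factors, DESeq2, the likelihood ratio test, no filter, all 6 cultured libraries in one fit and without 2 genes of very high counts. With at least 10 counts in every library they were 3, because Trim63 and Asb2 were then not tested. Leaving out a replicate gave 4 to 7, and the lone library of such a fit was assumed to vary like the others. Leaving out each replicate gave a log2FC of MT over MB between -0.41 and 1.53 for Fbxo30, -0.28 and 1.71 for Cul3, -0.997 and 1.67 for Foxo4, 1.28 and 2.18 for Trim54 and 6.35 and 7.84 for Asb2. For lactate it gave -0.15 to 0.36 for Trim54, -0.15 to 0.74 for Fbxo32, -0.45 to 1.80 for Fbxo30, -0.71 to 1.34 for Cul3 and -2.97 to 0.87 for Foxo4, with 0 members called. The cause was not tested.

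The labels number the replicates alike but give no shared batch. Deviations of same-numbered libraries correlated at -0.132 for MT and MB and 0.702 for the lactate comparison. With the replicate block, 5 members were called in MT and 0 after lactate, where Fbxo30 had a log2FC of 0.58, and the sign turned for Foxo4 in MT (0.28) and Cul3 after lactate (0.19). The block gave 1447 genes higher and 824 lower in MT, beside 1425 and 887 without it. The crossed block, chosen after seeing the data, gave 1192 and 867, and 0.28 for Foxo4.

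Over all genes, the higher and lower calls in MT were 766 and 678 with at least 10 counts in every library, 962 and 270 without MT replicate 1, 4118 and 803 without MT replicate 2, 1736 and 1570 without MB replicate 2, and 1908 and 1343 in the likelihood ratio test. For lactate they were 0 and 0 except without MB replicate 1 (2 higher). Depth limits Trim63 and Asb2 in MB, at 5 counts or fewer per library.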
